A study of Caenorhabditis elegans with 9 samples.

Results

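The 7 genes of the *daf-7* branch of TGF-β signalling in *C. elegans* were read in whole worms that had undergone alternate-day fasting (ADF). The genes were *daf-7*, *daf-1*, *daf-4*, *daf-8*, *daf-14*, *daf-3* and *daf-5*. They were chosen by name from the known pathway, with earlier results of these data already known. NCBI Gene numbers were matched to WBcel235 RefSeq symbols. All 7 were found among the 45495 gene entries of the table. The labels list 9 libraries of adult wild-type N2 hermaphrodites at 20°C, with 3 each of control, young stage ADF and middle stage ADF. N2 is the standard laboratory strain, and ADF alternated a day on *E. coli* OP50 with a day on an empty plate over 7 days. Only young stage ADF replicate 1 was analysed. Control, middle stage ADF and the other young stage ADF libraries were not analysed here. No change under ADF was therefore tested for any gene, and no value has a replicate error. In RNA of whole worms, the number of cells that make a transcript and the amount per cell cannot be told apart.

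DAF-7 is a secreted TGF-β-related ligand. Well-fed worms make it mainly in the paired ASI sensory neurons of the head. It acts through the receptor kinases DAF-1 (type I) and DAF-4 (type II), and these signal through the Smad proteins DAF-8 and DAF-14. When the pathway is active, it opposes the Smad DAF-3 and its partner DAF-5, a protein of the Ski and Sno family. In larvae the outcome is reproductive growth in place of the dauer, an arrested stage that survives starvation. In adults the same genes are known for roles in feeding, fat storage, egg laying and the supply of germline progenitors.

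The ligand gene was the lowest of the branch and the type I receptor gene *daf-1* was the highest. Levels are given as FPKM, which divides the fragments of a gene by a length taken for that gene and by the size of the library. *daf-7* had 1.98 FPKM, whereas the other 6 members lay between 8.68 FPKM for *daf-8* and 22.5 FPKM for *daf-1*. The highest member was thus 11.3 times the lowest, but only 2.59 times the lowest of the other 6. All 7 members reached an FPKM of at least 1, the threshold of detection used here, and so did 56.9% of the 19959 protein-coding genes in the table. The median of the 7 members was 13.0 FPKM. The median of the 11351 protein-coding genes past the threshold was 16.9 FPKM, and 1 of the 7 members, *daf-1*, stood above it.

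**Figure D1:**
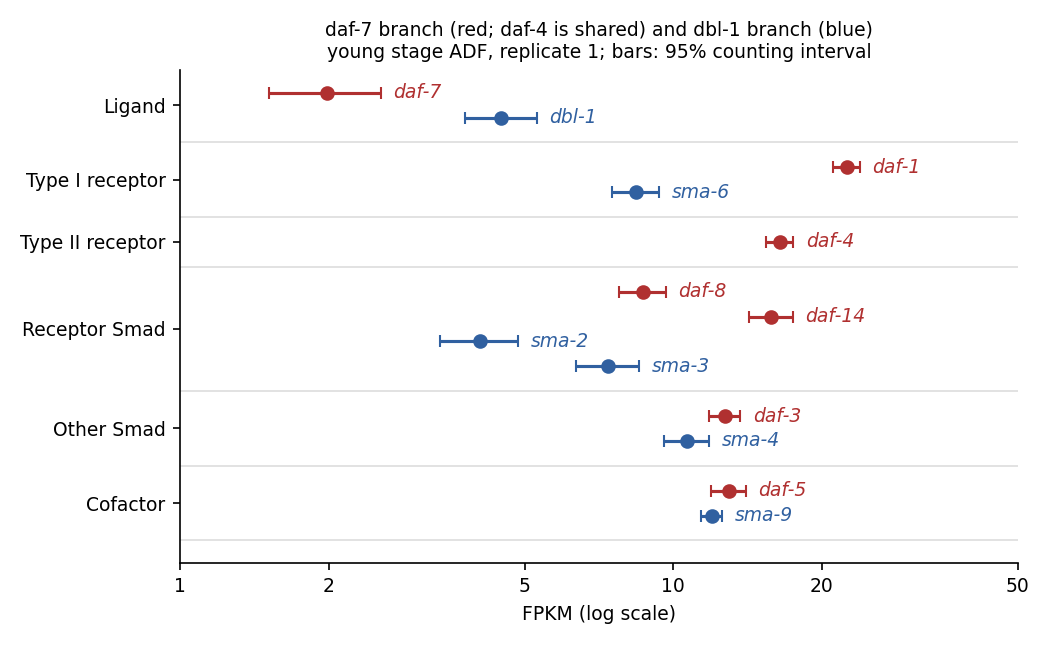
FPKM (log scale) of the genes of the *daf-7* branch (red) and of the genes with matching roles in the *dbl-1* branch (blue) in young stage ADF replicate 1, with 95% counting intervals as bars. *daf-7* at 1.98 FPKM lies to the left of *dbl-1* at 4.48 FPKM, whereas *daf-1* at 22.5 FPKM lies to the right of *sma-6* at 8.40 FPKM.

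The fragments behind an FPKM were worked out as a whole number over a whole length near the annotated one. A single such number was possible for 5 of the 7 members. For *daf-1* and *daf-14* several were possible, and the one whose length was nearest the annotation was used. The 95% intervals are exact Clopper-Pearson intervals on these fragments and cover counting error only.

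*daf-7*, the ligand gene, lies on the plus strand of chromosome III of WBcel235, from 811844 to 813773. Ensembl gives it 1 transcript with 5 exons and 1050 coding bases. It had 1.98 FPKM (95% interval 1.51 to 2.55) on 60 fragments, the fewest of any member, so its level is the least precise. Of the protein-coding genes past the threshold, 12.5% were lower, a percentile of 12.5. No other annotated gene overlapped it.

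Both receptor genes were several times higher than their ligand. *daf-1*, which encodes the type I receptor kinase, lies on the plus strand of chromosome IV, from 132416 to 138081. It had 22.5 FPKM (95% interval 21.1 to 23.9) and stood at a percentile of 55.3. *daf-4* encodes the type II receptor kinase, which the *dbl-1* branch uses too. It lies on the plus strand of chromosome III, from 5625135 to 5632323, and Ensembl lists 7 transcripts. It had 16.4 FPKM (95% interval 15.4 to 17.5) on 945 fragments, at a percentile of 49.5. *daf-1* was 11.3 times *daf-7* (95% interval 8.73 to 14.9), and *daf-4* was 8.28 times *daf-7* (95% interval 6.38 to 10.9). *daf-1* also exceeded *daf-4*, by 1.37 times (95% interval 1.25 to 1.49).

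The genes of the Smads that carry the receptor signal differed from each other. *daf-14* lies on the plus strand of chromosome IV, from 10250627 to 10255852, and had 15.8 FPKM (95% interval 14.2 to 17.5). *daf-8* lies on the minus strand of chromosome I, from 8584424 to 8587507, and had 8.68 FPKM (95% interval 7.78 to 9.66) on 337 fragments. *daf-14* was 1.82 times *daf-8* (95% interval 1.57 to 2.12). The fragments alone do not show this, since *daf-14* was given 366. Its exons are shorter, with 1272 bases against 1791 for *daf-8* in the annotation. With these annotated lengths in place of the lengths behind the FPKM values, *daf-14* was 1.53 times *daf-8* (95% interval 1.32 to 1.78).

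The genes of the Smad that the active pathway opposes and of its partner had nearly the same level. *daf-3* lies on the minus strand of chromosome X, from 817922 to 825475, with 9 transcripts in Ensembl. It had 12.7 FPKM (95% interval 11.8 to 13.7) on 736 fragments. *daf-5* lies on the minus strand of chromosome II, from 14033216 to 14052304. It had 13.0 FPKM (95% interval 11.9 to 14.1) on 593 fragments. The ratio of *daf-5* to *daf-3* was 1.02 (95% interval 0.913 to 1.14), so counting error would allow *daf-5* to be lower or higher. *daf-3* was 1.47 times *daf-8* (95% interval 1.29 to 1.67). *daf-14* in turn was 1.24 times *daf-3* (95% interval 1.09 to 1.41), so the level of *daf-3* lay between those of *daf-8* and *daf-14*.

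In order of level the members were *daf-1*, *daf-4*, *daf-14*, *daf-5*, *daf-3*, *daf-8* and *daf-7*. Of the 21 possible pairs of members, 19 differed by more than counting error. The exceptions were neighbours in this order. *daf-5* and *daf-3* were one pair. *daf-4* and *daf-14* were the other, with a ratio of 1.04 (95% interval 0.921 to 1.18). This pair depends on the length taken for *daf-4*. With the longest annotated transcript of each gene, *daf-4* was 1.21 times *daf-14* (95% interval 1.07 to 1.37). On the log2(FPKM + 1) scale, with a pseudocount of 1, the members ran from 1.58 for *daf-7* to 4.55 for *daf-1*.

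**Figure D2:**
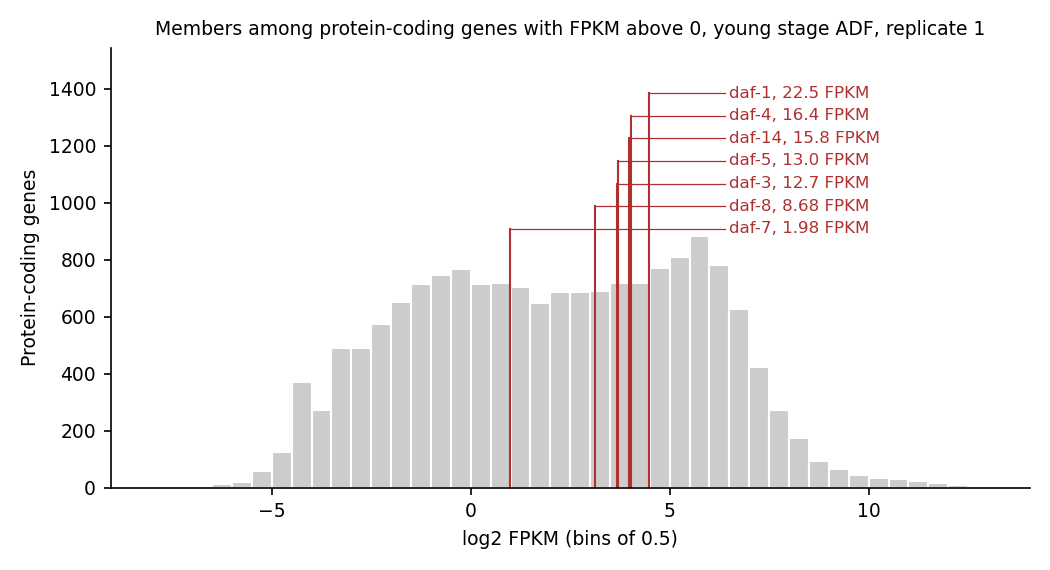
Number of protein-coding genes with an FPKM above 0 (vertical axis) by log2 FPKM in bins of 0.5 (horizontal axis) in young stage ADF replicate 1. Red lines mark the members, 6 of them between 8.68 and 22.5 FPKM and *daf-7* apart at 1.98 FPKM.

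The length behind the FPKM was compared with the annotation for the 5 members with a single possible length. For *daf-3*, with 3177 bases, it equalled the merged exons. The difference was small for *daf-7*, with 1661 bases against 1645, and for *daf-4*, with 3158 against 3097. For *daf-5* the 2512 bases were close to the 2508 of 1 of its 2 transcripts. The other transcript carries an extra 5′ exon, and the longest intron of the gene model spans 14446 bases. RefSeq places *daf-5* only between 14033220 and 14037721. *daf-8* stood apart, since its 2132 bases were 1.19 times the 1791 bases annotated. With the annotated length *daf-8* would have 10.3 FPKM, above its 95% interval, and it would still be the lowest member after *daf-7*. For *daf-1* the FPKM did not fix the length. There were 42 lengths within 1.2 times the annotated 2505 bases that gave whole fragments, from 855 to 1224 fragments. The nearest length, 2508 bases, gave 1026 fragments, and the interval of *daf-1* rests on that choice. For *daf-14*, 3 such lengths were possible, from 305 to 427 fragments, and the annotated 1272 bases, with 366 fragments, were used.

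**Figure D3:**
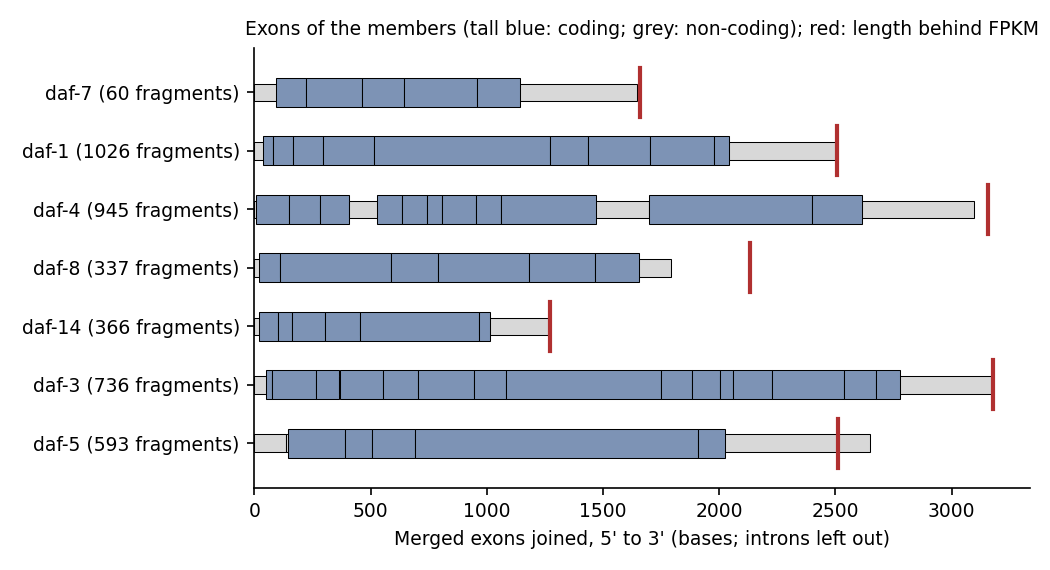
Merged exons of each member joined from 5′ to 3′ in bases, with coding sequence as tall blue boxes and non-coding exon as low grey boxes, and the length behind the FPKM as a red line. The red line of *daf-8* at 2132 bases lies beyond the 1791 annotated bases, whereas that of *daf-3* lies at the end of its exons. For *daf-1* and *daf-14* the line marks the length nearest the annotation among several possible ones.

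Genes that overlap a member could share fragments with it where strand was not used. The sources name different library kits, 1 of them stranded, so whether strand was used is not settled. The exons of *daf-1* overlap those of the collagen gene *col-99* on the opposite strand by 108 bases, and *col-99* had 4.03 FPKM on 217 fragments. The exons of *daf-14* overlap those of F01G10.9 on the opposite strand by 111 bases, and F01G10.9 had 2.42 FPKM on 73 fragments. The non-coding gene C05D2.11 lies within *daf-4* on the same strand without sharing exon bases and had 8.79 FPKM. No gene of the annotation overlapped *daf-7*, *daf-8*, *daf-3* or *daf-5*. The part of these neighbours in the levels of the members was not tested, and neither was the sharing of fragments among similar kinase or Smad genes.

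The *dbl-1* branch is the other TGF-β pathway of the worm, known for control of body size, and it repeats the layout of the *daf-7* branch. Role by role, the *daf-7* branch was lower at the ligand and higher at the type I receptor. *dbl-1*, the body size ligand gene, had 4.48 FPKM on 141 fragments. *daf-7* was 0.442 times *dbl-1* (95% interval 0.321 to 0.603). *sma-6*, the type I receptor gene of that branch, had 8.40 FPKM on 330 fragments, and *daf-1* was 2.67 times *sma-6* (95% interval 2.36 to 3.04). *daf-4* serves both branches and has no counterpart.

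Of the Smad genes that carry the receptor signal, *sma-2* had 4.05 FPKM and *sma-3* had 7.38 FPKM. *daf-14* was 3.90 times *sma-2* (95% interval 3.17 to 4.83) and 2.14 times *sma-3* (95% interval 1.79 to 2.57). *daf-8* was 2.14 times *sma-2* (95% interval 1.74 to 2.66), whereas its ratio to *sma-3*, 1.18, had a 95% interval of 0.978 to 1.42 that held 1. With annotated lengths, *daf-8* was 1.36 times *sma-3* (95% interval 1.13 to 1.64). *daf-3* was close to the Smad gene *sma-4*, at 1.19 times its 10.7 FPKM (95% interval 1.05 to 1.36). *daf-5* was 1.08 times the transcription cofactor gene *sma-9*, with a 95% interval of 0.985 to 1.19 that held 1. These ratios compare genes within 1 library and say nothing on a response to ADF.

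Other TGF-β ligand genes bracketed *daf-7*. *unc-129*, which guides axons and cells, had 10.04 FPKM, *tig-2* had 6.22 FPKM, and *tig-3* had 0.113 FPKM on 3 fragments. *tag-68*, a further gene of the Smad family, had 1.81 FPKM (95% interval 1.39 to 2.32), an interval that overlapped that of *daf-7*. Of 6 genes that act with the *daf-7* branch in dauer entry or its signalling, 4 had an FPKM of at least 1. Among all protein-coding genes the share was 56.9%. The highest was *bra-1*, whose product binds the receptor DAF-1, with 19.3 FPKM (95% interval 17.2 to 21.6). *hid-1* had 12.5 FPKM and the adaptor gene *soc-1* had 5.16 FPKM. The secreted HEN-1 and the receptor kinase SCD-2 act together, and *hen-1* had 4.79 FPKM, whereas *scd-2* was at 0.603 FPKM. *egl-4*, which encodes a cGMP-dependent kinase, had 0.708 FPKM.

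Genes that bring sensory input to *daf-7* were lower than *daf-7* itself. They act in cGMP signalling, pheromone sensing, serotonin synthesis and calcium signalling. All 11 were found, and their median was 0.117 FPKM. Of all protein-coding genes, 56.9% had an FPKM of at least 1. Only 1 of them, the calcium-dependent kinase gene *cmk-1*, had an FPKM of at least 1, with 1.39 (95% interval 1.01 to 1.86), which overlapped the interval of *daf-7*. The guanylyl cyclase gene *daf-11* had 0.0789 FPKM on 6 fragments. The channel subunit gene *tax-4* had 0.152 FPKM on 7 fragments, and *tax-2* had 0.112 FPKM on 5. *srg-36*, a pheromone receptor gene, was listed at 0. Of 75 ribosomal protein genes, 7 were also listed at 0, so a 0 in this table does not show that a gene is silent.

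The other arms of dauer control stood at different levels from each other. In the insulin branch, all 8 genes had an FPKM of at least 1, against 56.9% of all protein-coding genes. The median of this branch was 21.3 FPKM. The only insulin-like ligand genes on this list, *daf-28* and *ins-6*, were low as well. *daf-28* had 1.87 FPKM (95% interval 1.22 to 2.74) and *ins-6* had 2.87 FPKM (95% interval 1.91 to 4.15). Both intervals overlapped that of *daf-7*. The receptor gene *daf-2* had 19.4 FPKM, and the highest of this branch were *daf-18* at 250 FPKM and *akt-1* at 150 FPKM. In the steroid hormone branch, 5 of 8 genes had an FPKM of at least 1, close to the 56.9% of all protein-coding genes. Their median over all 8 was 2.66 FPKM. The nuclear receptor gene *daf-12* had 4.20 FPKM, its corepressor gene *din-1* had 8.23 FPKM, and *daf-9*, which encodes a cytochrome P450 for hormone synthesis, had 0.693 FPKM. *hsd-1* was listed at 0.

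Genes linked to the adult outputs of the branch were read as well. The glutamate receptor genes *mgl-1* and *mgl-3*, which *daf-3* and *daf-5* affect in fat control, had 0.103 FPKM on 6 fragments and 0.194 FPKM on 12 fragments. *tdc-1*, for tyramine synthesis, had 127 FPKM. For the germline progenitor pool, all 8 genes had an FPKM of at least 1, against 56.9% of all protein-coding genes. The median of these 8 was 42.4 FPKM. The Notch receptor gene *glp-1* had 57.9 FPKM (95% interval 56.2 to 59.6), and its target genes *sygl-1* and *lst-1* had 80.2 and 72.7 FPKM. The ligand gene *lag-2*, expressed in the distal tip cell, had 2.03 FPKM (95% interval 1.53 to 2.64), an interval that covered the level of *daf-7*. The rest of this list was spread widely, with *apx-1* at 57.2 FPKM, *lag-1* at 27.7, *fbf-1* at 4.56 and *fbf-2* at 1.43.

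**Figure D4:**
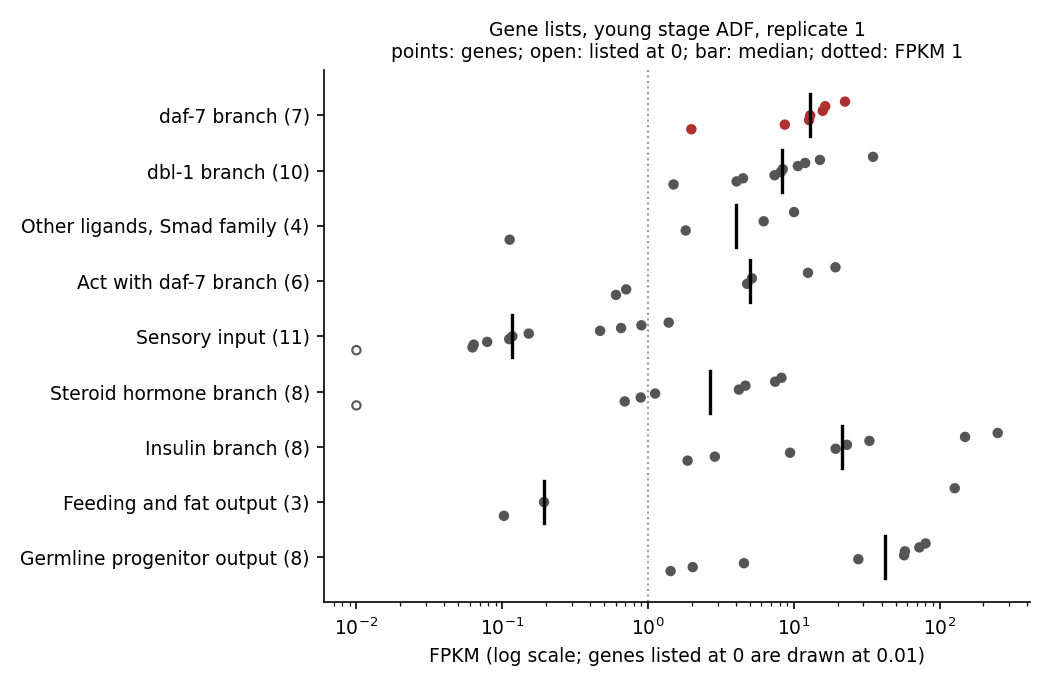
FPKM (log scale) of each gene (points, open where listed at 0 and drawn at 0.01) and median of each list (bar) in young stage ADF replicate 1, with the number of genes found in parentheses and FPKM 1 as a dotted line. The *daf-7* branch (red) has a median of 13.0 FPKM, the sensory input list 0.117 FPKM and the germline progenitor list 42.4 FPKM.

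Marker genes of adult hermaphrodites were high in the library. The 3 yolk genes lay between 913 and 1363 FPKM and the 4 oocyte genes between 256 and 438 FPKM. Of 4 dauer larva genes, *col-40* was listed at 0, *col-2* had 0.171 FPKM on 3 fragments, *cut-1* had 0.0367 FPKM on 1 fragment, and the small heat shock gene *hsp-12.6* had 21.4 FPKM. The 4 embryo genes lay between 0.733 and 3.44 FPKM, and of 3 sperm genes only *msp-142* reached an FPKM of 1. All 7 neuron genes had an FPKM of at least 1, against 56.9% of all protein-coding genes. They ran from 1.29 for *rgef-1* to 339 for *snb-1*. The next highest was *egl-21* at 25.7 FPKM, so *snb-1* stood apart from the other neuron genes and within the range of the oocyte genes. The 4 genes listed as ASI markers were all below *daf-7*, with *str-3* listed at 0 and *unc-3* highest at 0.964 FPKM. Which cells gave the fragments of these markers was not tested, so 0.964 FPKM is not a measure of ASI. The part of neurons or of any cell type in the level of *daf-7* was not tested.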

How the data were processed

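Per the labels, RNA of whole worms was sequenced in 9 libraries, of which young stage ADF replicate 1 alone was used. The values the authors deposited are FPKM, and the methods give Ballgown for the calculation and HISAT2 for alignment to WBcel235. The submitters' processing notes name Bowtie 0.12.2 and StringTie. The gene annotation and the use of strand are not given in the sources used here. The methods name the KAPA Stranded kit and the labels an Illumina TruSeq kit.

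Of 45519 entries, 24 that name the mitochondrial genome (0.103% of the summed FPKM) were left out, and 44752 of the 45495 remaining matched a RefSeq gene. Exons came from Ensembl release 115. The divisor of the FPKM values, 18205113.33, was taken from entries of 21 bases, all 268 of which lay in whole steps. For each gene, the length nearest its merged exons that gave whole fragments was kept. This gave fragments for 17922 of 17925 genes above 0, with 18633609 in all. This sum exceeds the divisor, which is not a whole number, and what the divisor counts is not stated. In 2000 simulated entries, 97.7% of fragment numbers were right. The simulated lengths equalled the annotated ones or varied around them, which is also what the choice of the nearest length assumes. This share therefore does not test that assumption.

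Ratios carry exact conditional binomial intervals at 95%. A simulation of 2000 such ratios, with the lengths taken as known, held the true value in 95.9%. It covers counting error alone and not the choice among possible lengths. The planned limma comparisons between groups were not run because only 1 library was analysed, so there are no p-values. Named genes are the members and genes of lists by role. Of the listed genes, *crm-1* matched no entry. The members and lists were chosen with earlier results of these data known. The alternatives changed the gene length, the scale, the detection threshold, the genes ranked, the pseudocount and the filter on low values. Computation used Python 3.11.15 with scipy 1.17.1 and numpy 2.4.6, and tables and plots used pandas 2.3.3 and matplotlib 3.10.9.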

Additional observations from a re-analysis of the deposited data

How the results depend on the processing

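No paired analysis was possible because young stage ADF replicate 1 alone was used here, and for the same reason leaving out replicates was not run. Rescaling to the TPM scale multiplied all genes by the same 1.19, which cannot change their order. It gave 26.7 for *daf-1*, 19.5 for *daf-4*, 18.8 for *daf-14*, 15.4 for *daf-5*, 15.1 for *daf-3* and 10.3 for *daf-8*. With the merged exon length, *daf-8* had 10.3 FPKM and the ratio of *daf-3* to *daf-8* was 1.23. With the longest transcript, *daf-4* had 19.1 FPKM and *daf-8* 10.3 FPKM, and the ratios of neighbouring members, an alternative chosen after seeing the data for both lengths, were 1.18 for *daf-1* to *daf-4*, 1.21 for *daf-4* to *daf-14* and 1.25 for *daf-3* to *daf-8*. Annotated lengths also put *daf-5* slightly below *daf-3*, at 0.966, with an interval that held 1. All 7 members were above 0 and at 0.1 or more, which follows from their FPKM of at least 1. At an FPKM of at least 5 there were 6. An FPKM above 0 was also common in the table, with 16649 of 19959 protein-coding genes. The shares of all genes at 0.1 and at 5 were not worked out. The median of all protein-coding genes in the table was 1.93 FPKM, so these counts are not read as a trait of the members. The ratios to the *dbl-1* branch stayed within their intervals under annotated lengths and both pseudocounts, although with annotated lengths the interval of *daf-8* to *sma-3* no longer held 1. The percentile of *daf-7* was 12.5 among protein-coding genes past the threshold and 50.2 among all protein-coding genes in the table. Depth limits *daf-7* most, with 60 fragments.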
